A study of Mus musculus with 12 samples.

Results

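The transcript of p53 and of 9 genes that p53 activates directly was followed in mouse leukemia cells exposed to CCS1477, a drug that binds the bromodomains of p300 and CBP. The 10 genes were chosen by name, not by a limit on expression, and all 10 are among the 15651 genes of the expression table. They are *Trp53*, which encodes p53, its repressors *Mdm2* and *Mdm4*, and the targets *Cdkn1a*, *Ccng1*, *Trp53inp1*, *Zmat3*, *Phlda3*, *Aen* and *Tnfrsf10b*.

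p53 is a transcription factor that is held low in unstressed cells because Mdm2, a ubiquitin ligase, marks it for degradation, while the related protein Mdm4 blocks its activating domain. After DNA damage or other stress the protein is stabilized and switches on genes for cell cycle arrest, repair and cell death. p53 also activates *Mdm2*, which closes a feedback loop, and its activity at target genes draws on the acetyltransferases p300 and CBP, which acetylate p53 and the histones near its binding sites. Much of the control of p53 acts on the protein, which transcript levels do not show.

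RNA was sequenced from c-Kit+ leukemic cells of the spleens of moribund mice, 3 of genotype Dnmt3a fl/fl, Flt3 ITD/ITD, Mx1Cre (*D/F*) and 3 of genotype Tet2 fl/fl, Flt3 ITD/ITD, Mx1Cre (*T/F*). All mice therefore carried the internal tandem duplication of *Flt3* on both alleles and the Mx1Cre transgene, which was not induced, so that deletion of the floxed alleles relied on leaky expression of the recombinase and could involve one or both alleles. The cells from one animal were divided into a CCS1477 culture (4 µM for *D/F*, 2 µM for *T/F*) and a DMSO culture for 6 hours, in medium with SCF, IL6 and IL3, which gave 12 libraries in 4 groups of 3. No untreated normal cells entered the comparison, and the effects of genotype and dose on the response cannot be told apart.

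Expression was given as TPM, a share of all transcripts corrected for length, and the 12 libraries summed to between 914204 and 931697 TPM. TPM keeps no read numbers, so the sequencing depth of a gene is unknown and the spread between 3 mice is the error used here. The library pair of *D/F* mouse 2 stood apart, with a median gene of 20.4 TPM in DMSO and 20.0 in CCS1477 against 16.1 to 18.8 in the other 10 libraries, and results of the members, named genes and gene lists in *D/F* are given with and without it where a call changes. *Dnmt3a* (29.3 to 55.7 TPM in *D/F* DMSO and 39.9 to 53.9 in *T/F* DMSO) and *Tet2* (38.3 to 43.4 in *D/F* DMSO and 30.0 to 35.8 in *T/F* DMSO) remained measurable in every library, and a value summed over a whole gene does not check the deletion of an exon. The drug response was visible in *Myc*, the proto-oncogene transcription factor, which fell from 378 ± 84.7 TPM (SD, n = 3) to 19.2 ± 1.48 in *D/F* (adjusted p = 0.00131) and from 268 ± 40.9 to 23.8 ± 4.01 in *T/F* (adjusted p = 0.000311). Of the progenitor markers, *Kit* was between 22.8 and 149 TPM and *Mpo* between 277 and 3670 TPM over all libraries, whereas *Ptprc*, the pan-leukocyte marker CD45, was only at 0.826 to 3.11 TPM. The transcript annotation behind the values is not given in the sources used here, so this low value does not show how much CD45 RNA the cells held.

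The promoters of the members show where the sequence that p53 reads lies close to a start site. RefSeq windows of GRCm38.p6, 300 bases long from 250 before to 50 after an annotated start, were at hand for 7 members in 10 windows. A p53 response element is a pair of 10-base half-sites. The half-site was searched on both strands by its consensus, and a full site was taken as a pair of half-sites at most 13 bases apart with at most 2 mismatches in all. CACGTG, the E-box core that Myc and related factors can bind, was searched as well, and it reads the same on both strands. Of all 32851 windows in the reference, 8.36% held a half-site, 4.09% a full site and 7.15% CACGTG. The windows printed are those with a full site (*Cdkn1a* and *Ccng1*) and 1 for each member with a window whose transcript passed with CCS1477 (*Trp53*, *Mdm2* and, of 2 overlapping windows, the second of *Aen*), 5′ to 3′ on the strand of the gene, with capitals on every match.

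Cdkn1a: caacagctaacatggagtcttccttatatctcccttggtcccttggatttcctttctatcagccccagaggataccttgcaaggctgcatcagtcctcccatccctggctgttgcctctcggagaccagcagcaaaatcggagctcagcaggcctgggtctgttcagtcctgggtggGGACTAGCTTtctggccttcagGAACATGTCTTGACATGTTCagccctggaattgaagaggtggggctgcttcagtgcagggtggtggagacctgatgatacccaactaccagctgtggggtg
Ccng1: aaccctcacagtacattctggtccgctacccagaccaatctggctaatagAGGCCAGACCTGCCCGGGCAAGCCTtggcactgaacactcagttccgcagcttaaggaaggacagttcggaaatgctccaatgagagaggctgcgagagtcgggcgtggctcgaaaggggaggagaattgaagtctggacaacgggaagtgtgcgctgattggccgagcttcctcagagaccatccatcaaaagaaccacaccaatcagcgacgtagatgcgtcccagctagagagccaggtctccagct
Trp53: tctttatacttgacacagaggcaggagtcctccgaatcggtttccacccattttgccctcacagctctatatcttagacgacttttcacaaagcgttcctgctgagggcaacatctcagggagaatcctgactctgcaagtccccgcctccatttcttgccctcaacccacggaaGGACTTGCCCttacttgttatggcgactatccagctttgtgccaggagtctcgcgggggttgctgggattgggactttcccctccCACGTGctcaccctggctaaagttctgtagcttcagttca
Aen: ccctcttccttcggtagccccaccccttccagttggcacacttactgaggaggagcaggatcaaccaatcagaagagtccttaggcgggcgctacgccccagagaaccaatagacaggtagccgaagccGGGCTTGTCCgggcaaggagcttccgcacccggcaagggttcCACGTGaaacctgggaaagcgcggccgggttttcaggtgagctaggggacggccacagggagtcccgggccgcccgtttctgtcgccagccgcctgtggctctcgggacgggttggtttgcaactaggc
Mdm2: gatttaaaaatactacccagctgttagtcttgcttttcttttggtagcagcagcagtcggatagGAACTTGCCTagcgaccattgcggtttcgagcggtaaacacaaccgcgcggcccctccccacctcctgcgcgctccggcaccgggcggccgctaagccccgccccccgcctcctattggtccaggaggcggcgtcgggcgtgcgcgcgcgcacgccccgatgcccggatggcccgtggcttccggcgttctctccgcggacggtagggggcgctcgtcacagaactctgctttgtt

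The *Cdkn1a* window (chr17:29090729-29091028, plus strand) held half-sites starting at -73 and -51, counted from the annotated start at 0, a full site with no spacer and 1 mismatch at -51, and a pair without mismatch 12 bases apart from -73. The *Ccng1* window (chr11:40755237-40755536, minus strand) held a full site with no spacer and 1 mismatch at -195, and another with a spacer of 5 and 2 mismatches at -200. *Trp53* (chr11:69580109-69580408, plus strand) held a half-site at -75 and CACGTG at 10. The second *Aen* window (chr7:78895808-78896107, plus strand) held a half-site at -121 and CACGTG at -79, and the first (chr7:78895677-78895976) held the same half-site, at 10 from its own start. *Mdm2* (chr10:117710709-117711008, minus strand) held a half-site at -186. The well-known p53 sites of *Mdm2* lie in its first intron, outside this window. The windows of *Mdm4* and *Phlda3* and a second window of *Cdkn1a* held none of these letters. That second *Cdkn1a* window (chr17:29093519-29093818, plus strand) belongs to another annotated start downstream, so the *Cdkn1a* sites above are close to the upstream start only.

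In the DMSO libraries, from cells cultured for 6 hours without the drug, *Trp53* was the most abundant transcript of the 10 per unit length. Its mean was 169 ± 18.7 TPM (SD, n = 6 mice), above 94.5% of all genes, and its lowest mouse (145 TPM) was above the highest mouse of every other member. *Cdkn1a* (92.6 ± 17.8 TPM), *Mdm4* (84.5 ± 11.1), *Aen* (77.3 ± 12.7), *Mdm2* (65.5 ± 7.65) and *Ccng1* (59.1 ± 7.50) followed, and neighbours in this order overlapped. *Tnfrsf10b* (20.9 ± 4.15 TPM), *Trp53inp1* (10.5 ± 5.78) and *Zmat3* (5.54 ± 1.41) formed a lower group of overlapping neighbours, all below *Ccng1*. *Phlda3*, at 1.77 ± 1.05 TPM, was the lowest and did not reach any *Zmat3* value.

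**Figure D1:**
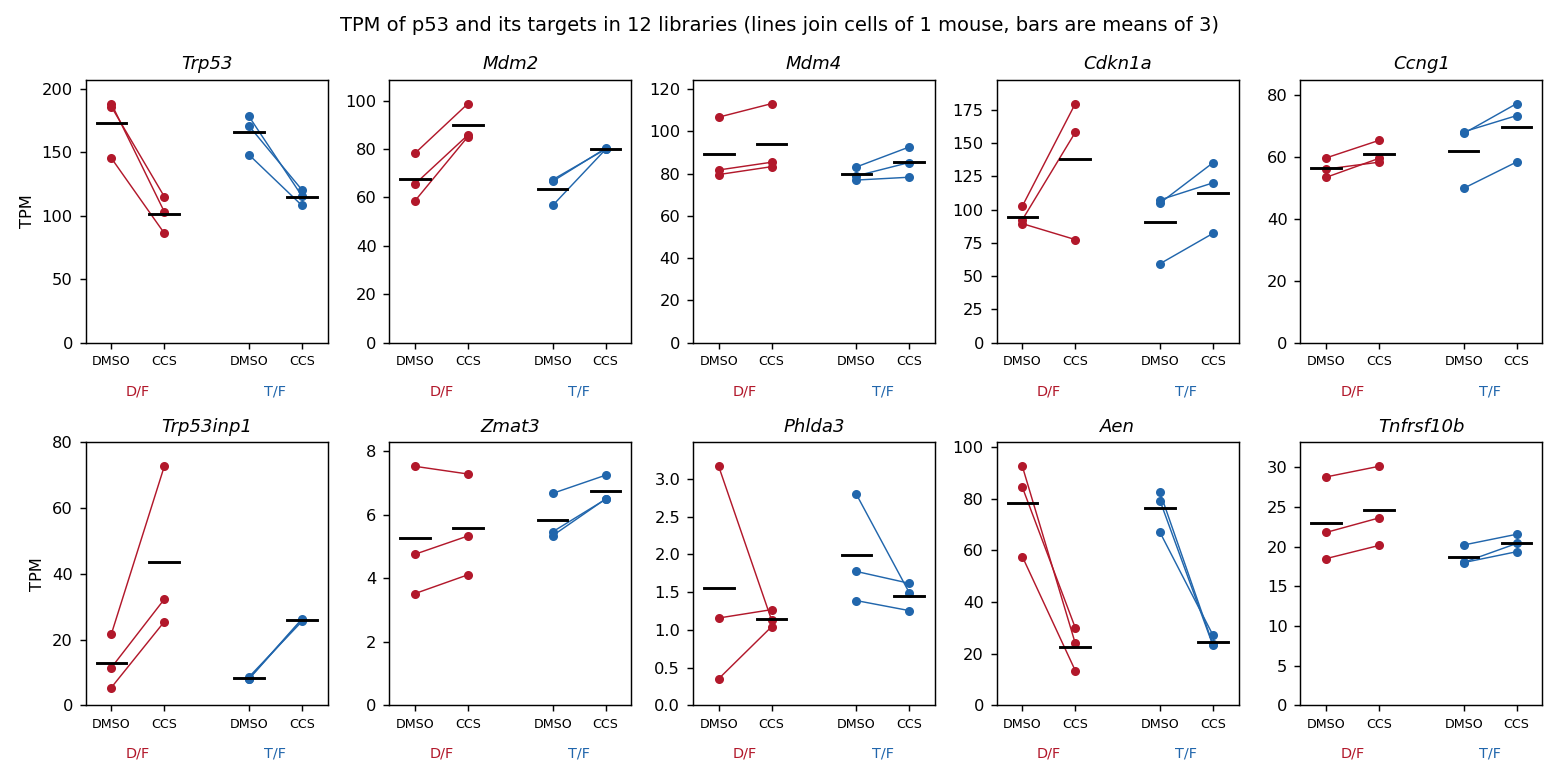
TPM of each of the 10 genes (y axis, from 0) in DMSO and CCS1477 (CCS) for *D/F* (red) and *T/F* (blue) mice, where points are libraries, lines join the cells of 1 mouse and black bars are means of 3. *Trp53* and *Aen* go down and *Mdm2* and *Trp53inp1* go up along all 6 lines.

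CCS1477 was compared with DMSO in each genotype to ask which members respond to p300/CBP bromodomain inhibition. In *D/F* cells, 0 members rose and 2 fell (*Trp53* and *Aen*) at an adjusted p under 0.05, while 11.6% of the 15501 genes tested passed (limma, and 4 members had an unadjusted p under 0.05). In *T/F* cells, 2 members rose (*Mdm2* and *Trp53inp1*) and the same 2 fell, while 43.4% of 15256 genes passed. The median log2 difference of the 10 members was 0.09 for *D/F* mice and 0.15 for *T/F* mice, beside 0.06 and 0.07 for all genes. *Trp53* and *Aen* were the 2 members that passed in both genotypes in the same direction, as 10.7% of all genes did. At a change above 2-fold as well, 1 member passed in *D/F* (*Aen*), where 7.28% of genes did, and 2 in *T/F* (*Trp53inp1* and *Aen*), where 7.33% did. CCS1477 and DMSO libraries did not overlap for 4 members in each genotype (*Trp53*, *Mdm2*, *Trp53inp1* and *Aen*), beside 36.6% of all genes for *D/F* mice and 56.1% for *T/F* mice. With the mouse as a block, which uses the pairing of the cells, 4 members passed in *D/F* (*Trp53*, *Aen*, *Mdm2* and *Trp53inp1*), where 39.3% of genes passed, and 5 in *T/F* (the same 4 and *Cdkn1a*), where 54.1% did. Without *D/F* mouse 1 or without *D/F* mouse 3 no member passed in *D/F*, and neither did any other gene. Without *D/F* mouse 2, 3 members passed (*Aen*, *Trp53inp1* and *Cdkn1a*), beside 24.6% of genes. In *T/F*, 2 members passed without mouse 1 (*Trp53inp1* and *Aen*), beside 22.8% of genes.

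**Figure D2:**
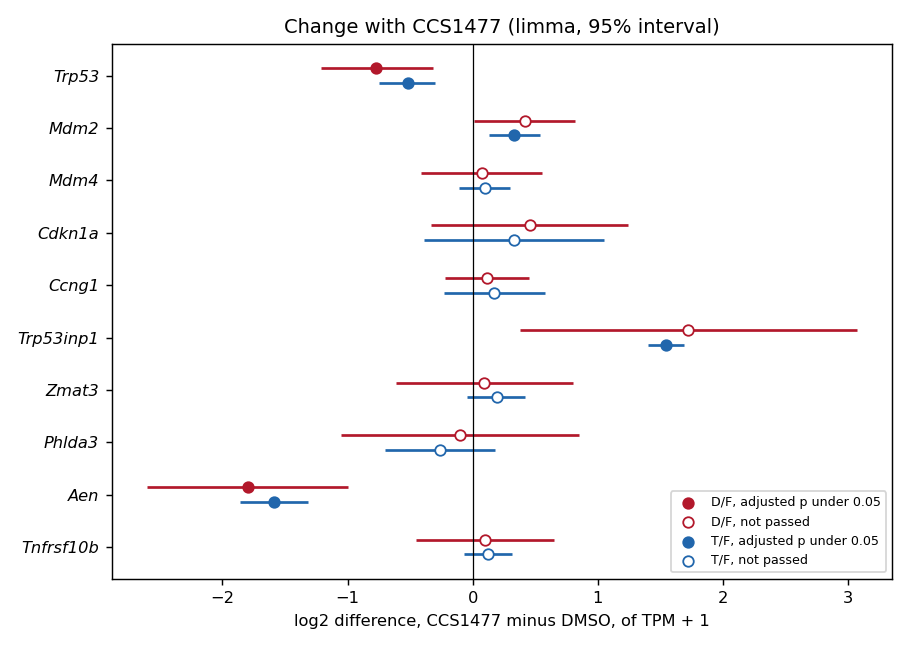
Log2 difference of TPM + 1 between CCS1477 and DMSO (x axis) for each of the 10 genes in *D/F* (red) and *T/F* (blue), with 95% intervals from limma and filled points for an adjusted p under 0.05. The interval of *Aen* lies from -2.60 to -1.0 in *D/F* and that of *Trp53inp1* from 1.40 to 1.69 in *T/F*, whereas the intervals of *Mdm4*, *Ccng1*, *Zmat3*, *Phlda3* and *Tnfrsf10b* include 0 in both genotypes.

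*Trp53* (chr11:69580359-69591873, GRCm38, plus strand) fell in both genotypes. In *D/F*, its levels in DMSO were 145, 188 and 186 TPM in mice 1, 2 and 3, and 86.1, 103 and 115 TPM in CCS1477. In *T/F* they were 178, 148 and 170 TPM in DMSO and 115, 108 and 120 TPM in CCS1477. Every CCS1477 library was below every DMSO library of its genotype. The *D/F* mean was 173 ± 24.1 TPM in DMSO and 101 ± 14.5 TPM in CCS1477 (SD, n = 3), which on the log2 scale is a difference of -0.77 (SE 0.19, adjusted p = 0.0476). The *T/F* mean was 165 ± 15.7 TPM in DMSO and 114 ± 6.21 TPM in CCS1477, a difference of -0.52 (SE 0.09, adjusted p = 0.00658). The *D/F* call was lost with a pseudocount of 0.1 TPM (adjusted p = 0.0569), with quantile normalization (0.0521) and without any one mouse (0.0775 to 0.306), and the *T/F* call without mouse 1 (0.0659). In bulk RNA, fewer cells that express a gene and less RNA of it per cell cannot be told apart. The annotation holds a *Trp53* pseudogene, *Trp53-ps*, which has no row in the expression table, and reads shared with it could have been split between the copies.

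*Mdm2*, the ubiquitin ligase of p53 and itself a p53 target (chr10:117688875-117710758, minus strand), moved the opposite way. In *D/F*, it was at 65.5, 78.2 and 58.6 TPM in DMSO and at 85.8, 98.8 and 85.1 TPM in CCS1477. In *T/F*, it was at 56.7, 66.6 and 67.3 TPM in DMSO and at 79.8, 80.3 and 79.9 TPM in CCS1477. The CCS1477 libraries were above all DMSO libraries in each genotype, and the 3 *T/F* values in CCS1477 had an SD of only 0.233 TPM. *Mdm2* rose in *T/F* (log2 difference 0.33, SE 0.08, adjusted p = 0.0228). In *D/F* the log2 difference was 0.42 (SE 0.17, 95% interval 0.01 to 0.82, adjusted p = 0.156), which passed once the mouse was a block (adjusted p = 0.0307, but 0.0512 to 0.159 in that fit without any one mouse) and in a fit of all 4 groups together (0.0275). The *T/F* call was lost in the fit of all 4 groups (adjusted p = 0.0775) and without any one mouse (0.0678 to 0.111).

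*Mdm4*, which encodes the partner of Mdm2 that binds and restrains p53, changed little. Its values ran from 79.5 to 107 TPM in *D/F* DMSO and from 83.3 to 113 TPM in *D/F* CCS1477, and from 76.9 to 83.1 and from 78.3 to 92.6 TPM in *T/F*. The groups overlapped in both genotypes, and the log2 differences of 0.07 in *D/F* (95% interval -0.41 to 0.55, adjusted p = 0.851) and 0.10 in *T/F* (-0.11 to 0.30, adjusted p = 0.387) did not pass. Part of *Mdm4*, 639 bp, overlaps a pseudogene on the opposite strand.

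The balance between repressor and p53 transcripts was examined as a ratio of TPM in the same library, a measure chosen after the values had been seen. In *D/F*, *Mdm2* was at 0.451, 0.416 and 0.316 of *Trp53* in DMSO and at 0.997, 0.959 and 0.741 in CCS1477. In *T/F*, the ratio was 0.318, 0.451 and 0.395 in DMSO and 0.692, 0.744 and 0.665 in CCS1477. The CCS1477 libraries did not overlap the DMSO libraries in either genotype, and the mean ratio went from 0.394 ± 0.0705 to 0.899 ± 0.138 in *D/F* and from 0.388 ± 0.0666 to 0.700 ± 0.0402 in *T/F* (SD, n = 3). Since *Trp53* was lower and *Mdm2* higher in all 6 mice, the ratio had to be higher in all 6. No conclusion is therefore drawn from its tests (exact permutation p = 0.1 in each genotype, exact sign-flip p = 0.03125 over 6 mice). The ratio of *Mdm4* to *Trp53* went from 0.518 ± 0.0686 to 0.936 ± 0.180 in *D/F* and from 0.484 ± 0.0388 to 0.745 ± 0.0229 in *T/F*, and here too the direction follows from those of the 2 transcripts, each the same in all 6 mice.

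**Figure D3:**
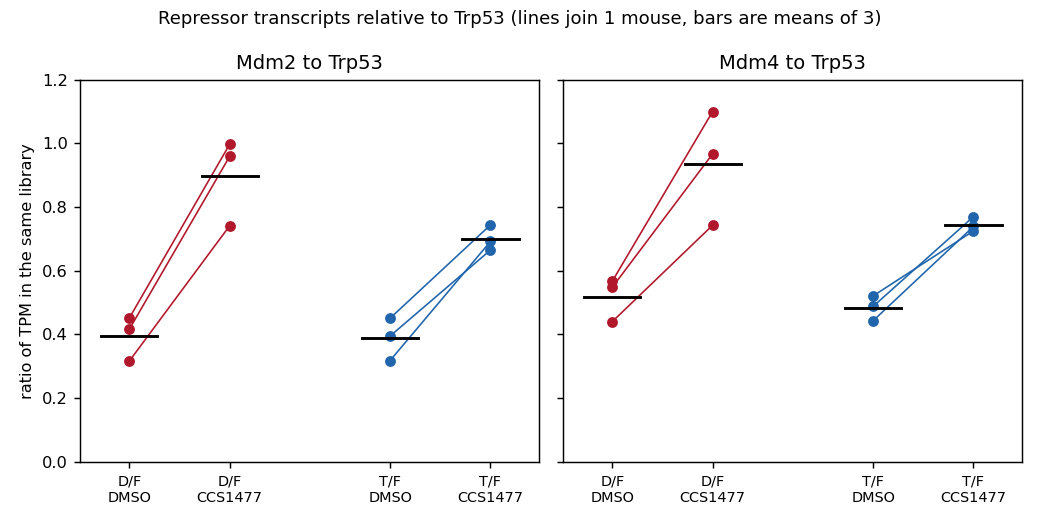
Ratio of *Mdm2* (left) and *Mdm4* (right) TPM to *Trp53* TPM in the same library (y axis, from 0) in DMSO and CCS1477, where lines join the cells of 1 mouse and black bars are means of 3. All 6 lines go up in both panels, and the *Mdm2* ratio reaches 0.741 to 0.997 in *D/F* and 0.665 to 0.744 in *T/F*.

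*Cdkn1a* encodes p21, the cyclin-dependent kinase inhibitor through which p53 halts the cell cycle, and its response differed between mice. In *D/F*, it was at 103, 89.4 and 92.4 TPM in DMSO and at 180, 77.4 and 158 TPM in CCS1477. In *T/F*, it was at 59.3, 105 and 107 TPM in DMSO and at 82.1, 135 and 120 TPM in CCS1477. *D/F* mouse 2, whose libraries stood apart, was the only one of the 6 mice with less *Cdkn1a* in CCS1477, and the groups overlapped in both genotypes. The log2 differences of 0.46 in *D/F* (SE 0.32, adjusted p = 0.39) and 0.33 in *T/F* (SE 0.29, adjusted p = 0.405) did not pass. Without *D/F* mouse 2 the *D/F* difference was 0.79 and passed (adjusted p = 0.0271), whereas it was 0.28 without mouse 1 (adjusted p = 0.769) and 0.30 without mouse 3 (adjusted p = 0.81). Once the mouse was a block the *T/F* difference passed (adjusted p = 0.0314, and 0.105 without mouse 1 and 0.131 without mouse 2), as did that over both genotypes (0.39, adjusted p = 0.0396). *Cdkn1a* overlaps another transcript model on the opposite strand by 1046 bp.

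*Ccng1*, which encodes cyclin G1, a regulator of Mdm2, ran from 53.4 to 59.7 TPM in *D/F* DMSO and from 58.3 to 65.4 TPM in *D/F* CCS1477. In *T/F* it ran from 49.9 to 68.1 and from 58.4 to 77.2 TPM. The groups overlapped although every mouse was higher in CCS1477, and the log2 differences of 0.11 (SE 0.14, adjusted p = 0.633) and 0.17 (SE 0.17, adjusted p = 0.439) did not pass. Over both genotypes with the mouse as a block the difference of 0.14 passed (adjusted p = 0.0273).

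*Trp53inp1* (chr4:11156431-11174379, plus strand) had the largest increase among the members. It encodes a stress-induced nuclear protein that takes part in p53 phosphorylation and in autophagy. In *D/F*, it was at 11.4, 21.7 and 5.39 TPM in DMSO and at 32.3, 72.7 and 25.4 TPM in CCS1477. In *T/F*, it was at 8.11, 8.62 and 8.01 TPM in DMSO and at 26.3, 25.5 and 26.0 TPM in CCS1477. CCS1477 and DMSO libraries were fully separated in each genotype, the *T/F* mice lay close together and the *D/F* mice spread widely, with mouse 2 highest under both treatments. The mean was 3.39 times the DMSO mean in *D/F* and 3.15 times in *T/F*. *Trp53inp1* rose in *T/F* (log2 difference 1.54, SE 0.06, adjusted p = 0.000242). In *D/F* the log2 difference of 1.72 (SE 0.56, 95% interval 0.38 to 3.07) had an adjusted p of 0.0954, and it passed once the mouse was a block (0.00565, but 0.0514 in that fit without mouse 3), in the fit of all 4 groups (0.0137) and without mouse 2 (1.73, adjusted p = 0.0398).

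*Aen* (chr7:78895854-78911209, plus strand), the apoptosis-enhancing nuclease that degrades DNA and RNA in dying cells, had the largest decrease. In *D/F*, it was at 57.6, 84.5 and 92.6 TPM in DMSO and at 13.4, 30.0 and 24.0 TPM in CCS1477. In *T/F*, it was at 79.3, 67.0 and 82.5 TPM in DMSO and at 23.2, 27.2 and 23.6 TPM in CCS1477. All CCS1477 libraries were far below all DMSO libraries. The mean was 0.287 of the DMSO mean in *D/F* (log2 difference -1.80, SE 0.33, adjusted p = 0.0242) and 0.323 in *T/F* (-1.59, SE 0.11, adjusted p = 0.000477). The *D/F* call was lost without mouse 1 (adjusted p = 0.119) and without mouse 3 (0.253).

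The other 3 members did not pass in either genotype. *Zmat3*, which encodes an RNA-binding zinc finger protein, was between 3.52 and 7.52 TPM over all libraries, with log2 differences of 0.09 in *D/F* (95% interval -0.61 to 0.80) and 0.19 in *T/F* (-0.05 to 0.42). *Tnfrsf10b*, the death receptor for the ligand TRAIL, was between 18.0 and 30.1 TPM, with log2 differences of 0.10 (-0.45 to 0.65) and 0.12 (-0.07 to 0.31). *Phlda3*, which encodes an inhibitor of the kinase Akt, was between 0.351 and 3.17 TPM, the lowest level of the members, with log2 differences of -0.10 (-1.05 to 0.85) and -0.26 (-0.70 to 0.18). In *D/F* mouse 2 *Phlda3* went from 3.17 to 1.13 TPM, whereas the other *D/F* mice were higher in CCS1477.

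Within mice, 7 of the 10 members moved in 1 direction in all 6 mice, beside 56.0% of all genes. *Trp53* (mean within-mouse log2 difference -0.65 ± 0.15, SD) and *Aen* (-1.69 ± 0.28) were lower in all 6, and *Mdm2* (0.37 ± 0.12), *Mdm4* (0.08 ± 0.04), *Ccng1* (0.14 ± 0.06), *Trp53inp1* (1.63 ± 0.23) and *Tnfrsf10b* (0.11 ± 0.04) were higher in all 6. For each of these the exact sign-flip test over 6 mice gave its smallest p, 0.03125, unadjusted for 10 members. The sizes differ widely behind this shared p, since *Mdm4* moved by 0.08 and *Aen* by -1.69 on the log2 scale. In the fit of both genotypes together, where 45.3% of genes passed, *Trp53* (-0.65, adjusted p = 0.000422) and *Aen* (-1.69, adjusted p = 2.88e-05) fell, and *Mdm2* (0.37, adjusted p = 0.00405) and *Trp53inp1* (1.63, adjusted p = 0.000999) rose. These 4 members passed there without any one of the 6 mice too, where 36.3% to 55.4% of genes passed. With the mouse as a block 6 members passed there (these 4, *Cdkn1a* and *Ccng1*), beside 60.3% of genes, and above 2-fold 2 did (*Trp53inp1* and *Aen*), beside 8.8%.

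The responses of the 2 genotypes were set against each other directly. For 0 of the 10 members did the response differ between *D/F* and *T/F* in limma (0.0% of 15583 genes passed), and 0 members had an unadjusted p under 0.05. The difference of the responses, *T/F* minus *D/F*, ran from -0.18 for *Trp53inp1* (95% interval -1.56 to 1.2) to 0.24 for *Trp53* (-0.21 to 0.69). For *Mdm2* it was -0.08 (-0.48 to 0.31) and for *Aen* 0.21 (-0.62 to 1.04). Every one of the 10 intervals included 0.

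The levels of the members were also compared between the genotypes at the same treatment. In DMSO, 0 of 10 members differed in limma (0.0328% of 15265 genes passed), and in CCS1477, where the doses differ, 0 of 10 differed (0.0329% of 15199 genes), with 0 members at an unadjusted p under 0.05 in each. Mean *Trp53* was 173 TPM in *D/F* and 165 TPM in *T/F* in DMSO, a log2 difference, *D/F* minus *T/F*, of 0.06 (95% interval -0.31 to 0.43). *Trp53inp1* had the largest differences, 0.40 in DMSO (-0.66 to 1.45) and 0.58 in CCS1477 (-0.32 to 1.47), and *D/F* mouse 2 was the highest mouse in both. The only member whose genotypes did not overlap was *Mdm2* in CCS1477, at 85.1 to 98.8 TPM in *D/F* and 79.8 to 80.3 TPM in *T/F* (exact permutation p = 0.1, the smallest that 3 against 3 allows), beside 20.3% of all genes that did not overlap. In DMSO, 0 members and 12.6% of all genes did not overlap.

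Genes whose profile over the 12 libraries was closest to those of *Trp53*, *Aen* and *Trp53inp1* were sought among 11604 genes whose mean reached 5 TPM, by the root mean square difference of log2(TPM + 1) after centring each gene. The 12 libraries share mice and treatments, so closeness is only a description. For *Trp53* the nearest were *Thumpd1* (0.06), *Npepl1* (0.08) and *Sms* (0.08), against a spread of *Trp53* itself of 0.36. *Thumpd1* had means of 40.7 and 24.4 TPM in *D/F* DMSO and CCS1477 and 41.1 and 27.2 TPM in *T/F*. For *Aen* (spread 0.90) they were *Pprc1* (0.18), *Polr1b* (0.20) and *Nol8* (0.20), and *Pprc1*, a transcriptional coactivator, had means of 160 and 42.6 TPM in *D/F* and 170 and 48.9 TPM in *T/F*. For *Trp53inp1* (spread 0.98) they were *Calcoco1* (0.14), *Klhl24* (0.19) and *Map1lc3b* (0.19), and *Calcoco1* had means of 11.2 and 36.4 TPM in *D/F* and 6.85 and 21.9 TPM in *T/F*.

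**Figure D4:**
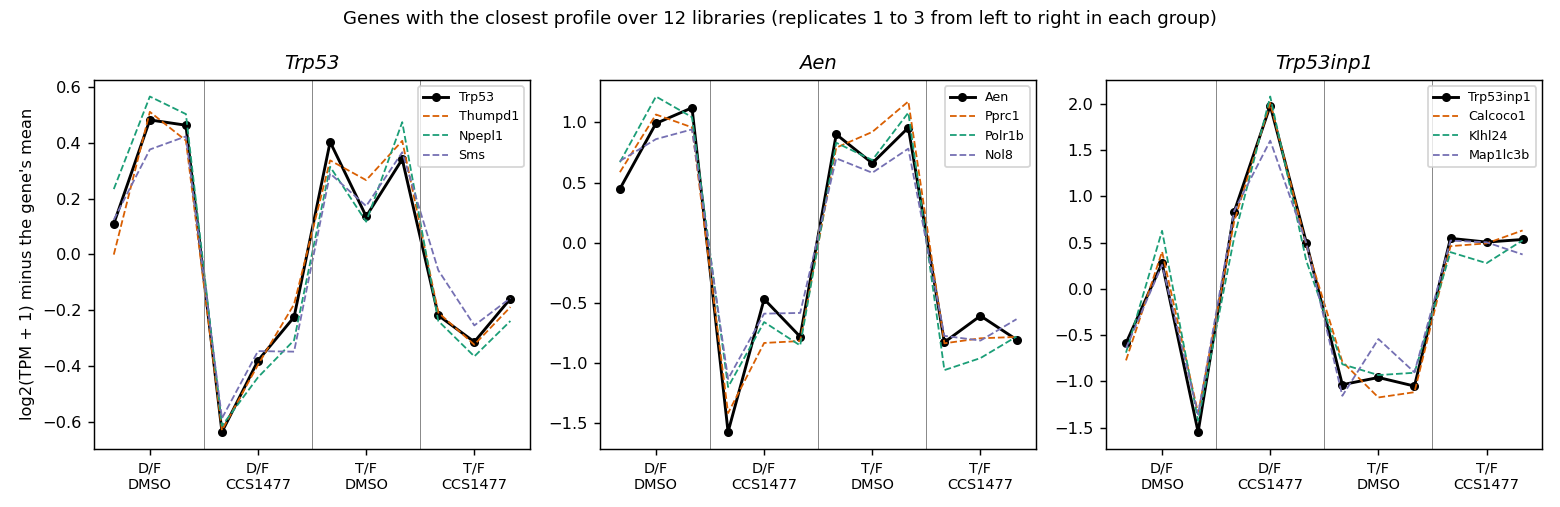
Log2(TPM + 1) minus the mean of the gene (y axis) over the 12 libraries (x axis, by group, mice 1 to 3 from left to right) for *Trp53*, *Aen* and *Trp53inp1* (black) and their 3 nearest genes (dashed). The nearest gene stays within a root mean square difference of 0.06, 0.18 and 0.14 of each member.

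The rest of the p53 network was described by lists written from general knowledge, with earlier results of these data known. Among the 8 arrest targets tested, 1 passed in *D/F*, which fell, and 1 rose and 1 fell in *T/F*, beside 5.14% of all genes higher and 6.51% lower in *D/F* and 25.8% higher and 17.6% lower in *T/F*. *Plk3*, a stress-responsive kinase, fell from 6.23 ± 0.334 to 2.27 ± 0.159 TPM in *D/F* (adjusted p = 0.00843) and from 6.23 ± 1.14 to 2.06 ± 0.141 TPM in *T/F* (adjusted p = 0.0013). With the mouse as a block 1 rose and 1 fell in *D/F*, while 3 rose and 1 fell in *T/F*.

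Among the 12 apoptosis targets, 2 passed in *D/F*, which both fell, and 4 rose and 3 fell in *T/F*, and with the mouse as a block 4 rose and 3 fell in *D/F* and 4 rose and 4 fell in *T/F*. Without *D/F* mouse 2, 2 rose and 2 fell in *D/F*. *Steap3*, a metal reductase, fell by 1.25 on the log2 scale in *D/F* (adjusted p = 0.00954) and by 1.19 for *T/F* mice (adjusted p = 0.00077). *Bid*, a BH3-only protein that links death receptors to mitochondria, fell too (-1.04, adjusted p = 0.0241, and -0.53, adjusted p = 0.0186), and its *T/F* call was lost without any one mouse (0.0562 to 0.104). Of the classical effectors *Bax*, *Bbc3*, *Pmaip1* and *Fas*, only *Bbc3* passed, and only in *T/F*. *Bax*, the pore former of the mitochondrial membrane, was at 92.4 ± 16.7 TPM in DMSO and 93.9 TPM in CCS1477 in *D/F* (adjusted p = 0.93) and at 105 ± 8.57 and 99.3 TPM in *T/F* (adjusted p = 0.495). *Bbc3*, which encodes the BH3-only protein Puma, rose in *T/F* from 5.53 to 8.97 TPM (0.61, adjusted p = 0.0259) and had a difference of 0.63 in *D/F* (adjusted p = 0.344, 0.045 without mouse 2 and 0.0223 with the mouse as a block, where it was 0.0996 without mouse 1 and 0.114 without mouse 3). Its *T/F* call was lost in the fit of all 4 groups (0.218), after rescaling to the median gene (0.0551), with quantile normalization (0.059), without mouse 1 (0.172) and without mouse 2 (0.0599). *Pmaip1*, which encodes Noxa, had differences of -0.57 in *D/F* (adjusted p = 0.097, and 0.0491 in the fit of all 4 groups) and -0.34 in *T/F* (adjusted p = 0.225, and 0.0205 with the block, where it was 0.0763 without mouse 1 and 0.0751 without mouse 3). *Fas*, a death receptor, had 0.45 in *D/F* (adjusted p = 0.48, and 0.0363 with the block, where it was 0.0905 to 0.154 without any one mouse) and 0.07 in *T/F* (adjusted p = 0.715).

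Of the 11 DNA repair targets, 3 passed in *D/F*, which all rose, and 4 rose and 1 fell in *T/F*. *Ddb2*, which recognizes UV damage, rose from 16.3 ± 3.34 to 31.8 TPM in *D/F* (adjusted p = 0.0367) and from 13.6 ± 1.65 to 26.3 TPM in *T/F* (adjusted p = 0.00219). *Ercc5*, an excision repair nuclease, rose by 1.45 and 0.90 on the log2 scale (adjusted p = 0.0223 and 0.00233), and *Rrm2b*, a ribonucleotide reductase subunit, by 0.75 and 0.59 (adjusted p = 0.0352 and 0.00133). With the mouse as a block 3 rose and 2 fell in *D/F* and 5 rose and 2 fell in *T/F*, and without *D/F* mouse 2, 4 rose and 0 fell in *D/F*.

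The metabolism and autophagy targets had the highest median difference of the target lists, 0.68 in *D/F* and 0.50 in *T/F*. Of 16 tested, 3 rose and 1 fell in *D/F* (9 and 2 with the mouse as a block, 6 and 2 without *D/F* mouse 2), and 8 rose and 3 fell in *T/F* (11 and 3 with the block). *Ulk1* and *Ulk2*, kinases that start autophagy, both rose, *Ulk2* from 19.6 ± 7.39 to 56.6 TPM in *D/F* (adjusted p = 0.0387) and from 14.3 ± 0.936 to 39.2 TPM in *T/F* (adjusted p = 0.000488), and *Ulk1* by 1.34 and 1.08 on the log2 scale (adjusted p = 0.0447 and 0.000334). Both *D/F* calls were lost with a pseudocount of 0.1 TPM (*Ulk2* 0.0507, *Ulk1* 0.0563). *Sco2*, an assembly factor of cytochrome c oxidase, had the largest change of the pathway genes listed, from 13 ± 4.30 to 1.03 TPM in *D/F* (-2.77, adjusted p = 0.00709) and from 11.9 ± 1.91 to 0.904 TPM in *T/F* (-2.81, adjusted p = 0.000912).

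Upstream of p53, 1 of the 11 turnover genes passed in *D/F*, which rose (4 rises and 1 fall with the block, 2 and 0 without *D/F* mouse 2), and 4 rose and 2 fell in *T/F*. *Rchy1*, which encodes Pirh2, another ubiquitin ligase of p53, rose from 27.5 ± 7.78 to 54.7 TPM in *D/F* (adjusted p = 0.0372) and from 28.7 ± 1.91 to 53.6 TPM in *T/F* (adjusted p = 0.000777). *Ppm1d*, the phosphatase Wip1 that reverses p53 phosphorylation, rose in *T/F* (0.45, adjusted p = 0.00571) and had 0.58 in *D/F* (adjusted p = 0.0907). The *D/F* difference passed in the fit of all 4 groups (0.00889), with quantile normalization (0.0439) and with the block (0.0139), where it was 0.0666 without mouse 1 and 0.0851 without mouse 3. The *T/F* call was lost without mouse 2 (0.0729). The damage kinases and sensors had 1 rise and 1 fall of 13 in *D/F* (1 and 3 with the block, 1 and 2 without *D/F* mouse 2) and 2 rises and 3 falls in *T/F* (2 and 5 with the block). *H2afx*, the histone marked at DNA breaks, rose by 0.91 and 0.62 on the log2 scale (adjusted p = 0.0243 and 0.00148), and *Hipk2*, a kinase of p53, fell (-0.78, adjusted p = 0.0325, and -0.34, adjusted p = 0.0254). The *H2afx* call in *D/F* was lost after rescaling to the median gene (0.059), and the *Hipk2* call in *T/F* in the fit of all 4 groups (0.0638) and without any one mouse (0.0688 to 0.153). *Trp63*, *Trp73* and *Cdkn2a* were looked up but had no row in the expression table, so they could not be tested.

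The cofactors include the drug targets. Of 11 tested, 2 rose and 1 fell in *D/F* (6 and 1 with the block, and also without *D/F* mouse 2) and 7 rose and 1 fell in *T/F* (8 and 1 with the block), with medians of 0.56 and 0.67. *Ep300*, which encodes p300, rose from 58.8 ± 4.60 to 95.7 TPM in *D/F* (adjusted p = 0.0294) and from 60.1 ± 3.54 to 106 TPM in *T/F* (adjusted p = 0.00084). *Crebbp*, which encodes CBP, rose in *T/F* from 50.3 ± 1.13 to 88.9 TPM (adjusted p = 0.00051) and was at 53.7 ± 7.40 and 92.3 TPM in *D/F* (adjusted p = 0.0562). The *D/F* difference of *Crebbp* passed with the 5 TPM filter (0.0429), after rescaling to the median gene (0.0262), with quantile normalization (0.0295), with a variance trend (0.0351), in the fit of all 4 groups (0.00287), without mouse 2 (0.0296) and with the block (0.00864), where it was 0.0521 without mouse 1 and 0.0645 without mouse 3. *Trp53bp2*, which encodes the p53 partner ASPP2, rose by 1.00 and 0.67 on the log2 scale (adjusted p = 0.0206 and 0.000801). *Carm1*, an arginine methyltransferase, fell (-1.03, adjusted p = 0.0279, and -0.79, adjusted p = 0.000626).

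Cell cycle genes that p53 can repress through p21 were listed as the far end of the pathway. Whether p53 or p21 acts on them in these cells was not tested. Of 22, 2 passed in *D/F*, which both rose (9 rose and 1 fell with the mouse as a block, 4 and 1 without *D/F* mouse 2), and 15 rose and 2 fell in *T/F*, with medians of 0.23 and 0.42. *Mki67*, the proliferation marker Ki-67, rose from 219 ± 26.7 to 371 TPM in *D/F* (adjusted p = 0.0476) and from 219 ± 28.1 to 414 TPM in *T/F* (adjusted p = 0.0024). *Cdc25c*, the phosphatase that opens entry into mitosis, rose from 19.1 ± 0.957 to 31.6 TPM (adjusted p = 0.046) and from 18.0 ± 0.599 to 33.9 TPM (adjusted p = 0.00055). Both *D/F* calls were lost with a pseudocount of 0.1 TPM (*Mki67* 0.057, *Cdc25c* 0.0521) and after rescaling to the median gene (0.111 and 0.0992), and that of *Cdc25c* with quantile normalization too (0.0705). Most genes of this list that passed were higher. Passing genes as a whole also leaned upward for *T/F* mice (25.8% of all genes higher, 17.6% lower). For *D/F* mice they did not (5.14% higher, 6.51% lower). *Cdkn1a* itself was higher in 5 of 6 mice. With all mice and no block, its difference passed for neither genotype in limma (adjusted p = 0.39 for *D/F*, 0.405 for *T/F*). With the mouse as a block it passed for *T/F* (adjusted p = 0.0314) and over both genotypes (0.0396), but not for *D/F* (0.2).

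**Figure D5:**
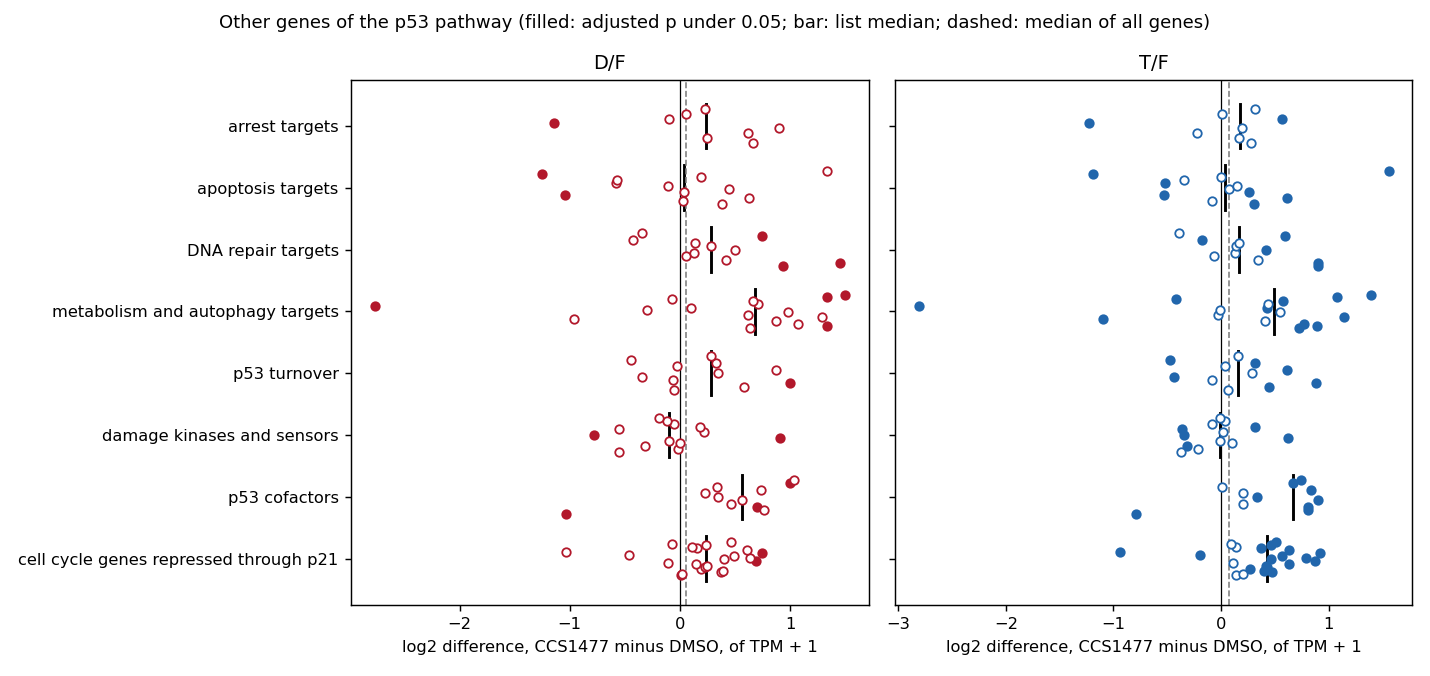
Log2 difference of TPM + 1 between CCS1477 and DMSO (x axis) for the other genes of the p53 pathway by list (y axis) in *D/F* (red) and *T/F* (blue), where each point is a gene, filled at an adjusted p under 0.05, black bars are list medians and the dashed line is the median of all genes (0.06 and 0.07). The lowest point in both panels is *Sco2*, and the medians of the metabolism and autophagy list are 0.68 and 0.50.

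Markers of cell state moved with the treatment as well. The summed level of 8 progenitor markers was 3630 to 10000 TPM in *D/F* DMSO and 803 to 4280 TPM in *D/F* CCS1477, and 4150 to 6380 and 1670 to 3000 TPM in *T/F*, where 6 of 8 fell (0 of 8 in *D/F* in limma, with 4 at an unadjusted p under 0.05). The 5 macrophage markers in the table, all above 0 in every library, summed to 19.7 to 26.6 and 2.84 to 5.05 TPM in *D/F* and to 22.9 to 37.3 and 6.20 to 12.8 TPM in *T/F*, and 3 fell in each genotype. Of the neutrophil, B cell, megakaryocyte and mast cell markers in *T/F*, 2 of each list fell and 1 B cell marker rose, while 1 neutrophil and 1 mast cell marker fell in *D/F*. Beside these marker counts, 6.51% of all genes fell and 5.14% rose in *D/F*, and 17.6% fell and 25.8% rose in *T/F*. The neutrophil markers summed to 2750 to 9510 TPM in *D/F* DMSO and 1670 to 9380 TPM in *D/F* CCS1477. In *T/F* they summed to 2380 to 7210 TPM in DMSO and 2530 to 6940 TPM in CCS1477. The mast cell markers summed to 87.0 to 182 TPM in *D/F* DMSO and 17.8 to 40.3 TPM in *D/F* CCS1477. In *T/F* they summed to 39.7 to 78.9 and 18.1 to 38.2 TPM, without overlap in either genotype. The B cell markers summed to 49.8 to 59.0 TPM in *T/F* DMSO and 104 to 132 TPM in *T/F* CCS1477. The megakaryocyte markers summed to 49.4 to 56.6 and 32.7 to 35.2 TPM there. In *D/F* the sums of both lists overlapped between the treatments. The T or NK cell markers in the table summed to between 13.8 and 28.1 TPM and the erythroid markers to between 10.8 and 34.7 TPM over all libraries. The part of these shifts in the differences of the members was not tested.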

How the data were processed

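RNA-seq of 12 libraries (c-Kit+ leukemic splenocytes, 2 genotypes with CCS1477 or DMSO, 3 mice each) was analysed. The authors deposited gene-level TPM, linear and not pooled. The submitters' processing notes name kallisto and mm10, and the study's methods name AltAnalyze; the transcript annotation is not given in the sources used here. Every gene reaches 2.00 TPM in at least 1 library, so genes low throughout were left out before deposit. The labels name both ribosome depletion and an mRNA kit, so which RNA was selected is unclear. TPM is a relative scale and does not show shifts of the whole RNA content of a cell.

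Log2(TPM + 1) values were tested two-sided with limma 3.58.1 (R 4.3.3) and Benjamini-Hochberg adjustment over all genes whose mean reached 1 TPM in either group compared. A gene passed below an adjusted p of 0.05, whatever its fold change. Log2 differences are on this scale and understate changes of low genes. Single values had exact permutation tests (3 against 3) or an exact sign-flip test over mice.

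The labels give the same mouse for the CCS1477 and DMSO sample of a number, and after subtracting group means the samples of a mouse correlated at 0.354 to 0.669 across genes, against at most 0.141 between mice of a genotype. The fit without the mouse followed the study, which states no pairing, and the blocked fit is given where it changes a call of a member, a named gene or a pathway list. The code was tested on simulated data.

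Members and gene lists were chosen with earlier results of these data known. Besides the members, Bax, Bbc3, Pmaip1, Fas, Trp63, Trp73, Ppm1d, Cdkn2a, Ep300, Crebbp and Myc were named whatever their values, and from each other pathway list up to 3 genes with the largest smaller absolute difference among those that passed in both genotypes in the same direction. Marker lists covered progenitors, neutrophils, macrophages, T or NK cells, B cells, erythroid cells, megakaryocytes and mast cells. Alternatives were the mouse block, other filters (5 TPM, or none), another pseudocount (0.1 TPM), a fit of all 4 groups, 2 rescalings, a variance trend, a 2-fold limit and leaving out each mouse.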

Additional observations from a re-analysis of the deposited data

Results flagged for a closer look

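Of the 7 stress genes, which can mark handling of the cells as well as signalling, 3 were higher with CCS1477 in every *D/F* mouse and lower in every *T/F* mouse. These 3 are named because they show this pattern. The share of all genes with it is not given, so no conclusion is drawn from their number. *Jun*, a subunit of the AP-1 transcription factor, differed by 0.51 (log2) in *D/F* and by -0.69 for *T/F* mice, a difference of the responses of -1.19 (adjusted p = 1.0 in limma). *Hspa1b*, an inducible Hsp70 chaperone, had 0.82 and -0.14, a difference of -0.96 (adjusted p = 0.988). *Atf3*, a stress-induced transcription factor, had 0.12 and -0.20, a difference of -0.32 (adjusted p = 1.0). With the mouse as a block *Jun* fell in *T/F* (adjusted p = 0.00842) and *Hspa1b* rose in *D/F* (adjusted p = 0.0468), which neither did without it (0.076 and 0.0622). Some within-mouse differences were close to none, since *Hspa1b* in *T/F* ran from -0.33 to -0.0 and *Atf3* in *D/F* from 0.03 to 0.23. None of the differences between the responses passed, and the doses differed between the genotypes.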

How the results depend on the processing

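Over both genotypes 4 members passed under every alternative except the 2-fold limit, which left 2 (*Trp53inp1* and *Aen*), and the mouse block, which gave 6. In *T/F*, 4 passed, with 2 under the 2-fold limit, 3 in a shared fit of all 4 groups (beside 24.3% of genes), 5 with the replicate block, and 2 to 3 when a replicate was left out (20.9% to 33.7% of genes). In *D/F*, 2 passed (11.6% of genes), with 1 at a pseudocount of 0.1 TPM (10.5%), 1 under quantile normalization (18.4%) and 1 under the 2-fold limit (7.28%). The *D/F* count was 4 in a shared fit of all 4 groups (31.9% of genes) and 4 with the replicate block by mouse (39.3%). It was 0 to 3 when a replicate was left out (0.0% to 24.6%). Fits with the block and a replicate left out were added once the data had been seen. There the *D/F* count was 2 without mouse 1 (12.8% of genes), 4 without mouse 2 (33.0%) and 0 without mouse 3 (0.0%). In these fits the members' count moved with that of all genes, whereas under quantile normalization it fell while the share of all genes rose. The block changed no call of the members and of the genes named by the rule beyond those given with their results. Fewer samples were fitted in the leave-one-out settings; the cause of the other shifts was not tested.

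The differences that changed sign under an alternative had not passed a test. In *D/F*, the *Phlda3* difference was 0.02 at a pseudocount of 0.1 TPM and -0.45 to 0.33 without a replicate, with 0.33 also under the block without mouse 2. *Bax* in *D/F* was -0.01 after rescaling to the median gene and -0.05 to 0.11 without a replicate, with -0.05 also under the block without mouse 1. *Fas* in *T/F* was -0.11 to 0.19 without a replicate, with -0.11 also under the block without mouse 3. The difference of the responses was -0.01 after rescaling and -0.03 after quantile normalization for *Mdm4*, and -0.01 and -0.02 for *Tnfrsf10b*. Without a replicate it was -0.00 to 0.06 for *Mdm4*, -0.46 to 0.05 for *Cdkn1a*, -0.59 to 0.19 for *Phlda3* and -0.00 to 0.04 for *Tnfrsf10b*. Between the genotypes in DMSO, *Aen* was -0.04 after rescaling. Without a replicate the DMSO values were -0.02 to 0.18 for *Trp53*, -0.03 to 0.17 for *Mdm2*, -0.16 to 0.26 for *Cdkn1a*, -0.05 to 0.86 for *Trp53inp1*, -0.42 to 0.04 for *Zmat3*, -0.78 to 0.03 for *Phlda3* and -0.12 to 0.22 for *Aen*. In CCS1477 they were -0.01 to 0.20 for *Mdm4* and -0.43 to 0.12 for *Aen*.

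With 3 mice a group, a dose that differs between the genotypes and no read numbers, small differences cannot be resolved. Nothing in the labels beyond the mouse numbers separates biological from technical spread, and 2 samples left in an arm are assumed to vary like the rest.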

Other observations

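Some p53 pathway genes outside the naming rule passed in *T/F* and not in *D/F* by the unpaired test. A few of them are given here after their values were seen, and others, such as *Pml*, *Sesn2* and *Tigar*, did the same. Over all genes, 43.4% passed in *T/F*, 11.6% in *D/F* and 10.7% in both in the same direction. The response differed between the genotypes for 0 of 15583 genes in limma. *Trp53i11*, a p53-induced gene, rose from 6.88 ± 3.68 to 21 TPM in *T/F* (log2 difference 1.56, adjusted p = 0.013), and in *D/F* the difference was 1.34 (adjusted p = 0.249, and 0.0459 with the mouse as a block). *Dram1*, a lysosomal protein of p53-dependent autophagy, fell from 22.7 ± 3.93 to 9.98 TPM in *T/F* (adjusted p = 0.00188), and in *D/F* it was at 18.5 ± 8.89 and 8.60 TPM (adjusted p = 0.231, and 0.0109 with the block). *Ephx1*, an epoxide hydrolase, went from 0.706 ± 0.105 to 2.77 TPM in *T/F* (adjusted p = 0.001), and in *D/F* it was at 1.03 ± 0.751 and 4.06 TPM (adjusted p = 0.0916, and 0.00583 with the block).

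Within the cell cycle list, *Mybl2*, a transcription factor of the S phase and G2 programme, went against most of its neighbours. It fell from 119 ± 6.34 to 61.6 TPM in *T/F* (log2 difference -0.94, adjusted p = 0.000696) and was at 113 ± 32.9 and 54.1 TPM in *D/F* (-1.03, adjusted p = 0.0609, and 0.00891 with the block). *Foxm1*, which works with it on mitotic genes, rose from 60.7 ± 8.25 to 105 TPM in *T/F* (adjusted p = 0.00415) and was at 61.3 ± 11.7 and 96.0 TPM in *D/F* (adjusted p = 0.104, and 0.0131 with the block). Of the 7 stress genes, none passed in either genotype in limma, and with the mouse as a block 2 rose in *D/F* (*Hspa1a* and *Hspa1b*), while *Hspa1a* rose and *Fos* and *Jun* fell in *T/F* (adjusted p = 0.0249, 0.00567 and 0.00842).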
